A study of Mus musculus with 18 samples.

Results

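The 7 genes described here encode neuronal nicotinic acetylcholine receptor subunits: Chrna3, Chrna4, Chrna6, Chrna7, Chrnb2, Chrnb3 and Chrnb4. They were taken by gene name from a table of 28684 genes. The family was chosen by the level of Chrna6, which was low in diseased dorsal root ganglia (DRG), so the DRG values of Chrna6 are given as a description with no test. The other 6 genes are its family, taken with earlier results of these data known.

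Bulk RNA was sequenced from C57BL/6 mice, from sciatic nerve, where sensory axons run with Schwann cells, and from the DRG of L3-L5, where the somata of those axons lie. Both tissues were taken from mice with no disease, from the peak of disease (PID21) and from recovery (PID42), with 3 libraries in each of the 6 groups. The sources used here do not give the way disease was induced, the age of the mice or whether each library is 1 animal, and p-values measure the spread between these libraries, which may be technical. The series title concerns how types of sensory neuron differ in vulnerability once axons lose their interaction with glia.

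Nicotinic receptors are cation channels opened by acetylcholine and built from subunits around a central pore. Alpha subunits carry the principal face of the binding site, the alpha7 subunit can form channels alone, and the other neuronal alpha subunits assemble with beta subunits. The beta3 subunit is an accessory subunit that is often found with alpha6. In mouse DRG, receptors with alpha6 and beta4 subunits have been linked to inhibition of P2X channels and to pain sensitivity.

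Several members are chromosomal neighbours. On GRCm38 (GENCODE vM21), Chrna6 (ENSMUSG00000031491) lies on the minus strand of chromosome 8 from 27403212 to 27413944, and Chrnb3 (ENSMUSG00000031492) on the plus strand from 27368711 to 27399730, leaving 3481 bp between their 3′ ends. Chrna3 (ENSMUSG00000032303; chromosome 9, 55010111 to 55026562) and Chrnb4 (ENSMUSG00000035200; 55028154 to 55048779) share the minus strand with a gap of 1591 bp. Chrna7 (ENSMUSG00000030525) spans 63098692 to 63212569 on chromosome 7, Chrna4 (ENSMUSG00000027577) spans 181018380 to 181043546 on chromosome 2, and Chrnb2 (ENSMUSG00000027950) spans 89746195 to 89764632 on chromosome 3. Exons of Chrnb2 overlap those of Adar. The sources used here do not give the strand setting of the counting, so reads of Chrnb2 and Adar cannot be told apart where they overlap.

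Sequences directly upstream of Chrna7 and Chrnb2, the pair of members with the highest correlation across the 9 DRG libraries, and of Chrna3 are printed 5′ to 3′ from RefSeq on GRCm38.p6. All lie on the minus strand, at chr7:63212570-63212776, chr3:89764633-89764882 and chr9:55026563-55026812. The Chrna7 stretch stops 43 bases short of the RefSeq start because those bases lie inside the GENCODE gene. Capitals mark the GC box GGGCGG or its reverse complement.
Chrna7: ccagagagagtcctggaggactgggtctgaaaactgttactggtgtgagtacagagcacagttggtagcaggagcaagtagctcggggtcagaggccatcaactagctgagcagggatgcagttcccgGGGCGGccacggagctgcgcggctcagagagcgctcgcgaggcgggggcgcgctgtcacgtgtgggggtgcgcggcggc
Chrnb2: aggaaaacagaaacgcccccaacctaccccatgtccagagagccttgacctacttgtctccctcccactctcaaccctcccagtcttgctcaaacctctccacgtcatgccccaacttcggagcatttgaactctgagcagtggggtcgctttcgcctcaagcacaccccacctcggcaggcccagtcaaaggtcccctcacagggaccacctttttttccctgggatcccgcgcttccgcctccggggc
Chrna3: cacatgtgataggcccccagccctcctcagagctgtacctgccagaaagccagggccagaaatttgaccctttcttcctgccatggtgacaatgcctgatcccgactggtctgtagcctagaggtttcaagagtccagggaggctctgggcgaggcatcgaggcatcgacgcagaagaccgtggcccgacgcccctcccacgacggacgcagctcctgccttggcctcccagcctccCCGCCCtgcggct
In the 250 bases before each start site, read on both strands, GGGCGG occurred 1 time for Chrna7, 1 time for Chrna3, 3 times for Chrna4, and 0 times for Chrnb2 and Chrnb4. It was present in 32.7% of 32851 mouse promoters read the same way. The AP-1 motif TGANTCA, present in 6.75% of promoters, and the CRE motif TGACGTCA, present in 1.55%, were found in none of the 5 windows, so no motif overlapped another. RefSeq matched 5 of the 7 members, and Chrna6 and Chrnb3 are named only.

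Total counts ranged from 14887230 to 22531371 per DRG library and from 13686465 to 23435562 per nerve library. Gm26917, Lars2 and AY036118 were used as a measure of ribosomal RNA reads, and other genes that may take up such reads were not summed. Together they made up 3.57% to 13.9% of DRG counts and 0.569% to 20.8% of nerve counts. DRG recovery replicate 1 stood apart from its group on the first principal component (37.5% of variance), at 9.7 against -19.6 and -16.1, and near the no disease libraries at 10.7 to 21.1. Counts of called genes in DRG recovery are therefore given with and without it, as are the values of members whose call or size changed. Levels below are counts scaled to library size (CPM) by TMM within a tissue. Each change is a log2 fold change ± SE from the quasi-likelihood test of edgeR, its p-values were adjusted by Benjamini-Hochberg over all genes tested, and a gene was called at adjusted p under 0.05.

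All 7 subunits were detected in every DRG library. Levels of different genes were compared per exon length, as length-scaled transcript levels (TPM). With no disease the order of mean TPM was Chrna6 (80.1 ± 16.8, SD, n = 3), Chrna7 (45.6 ± 7.18), Chrnb2 (36.7 ± 4.22), Chrna3 (13.8 ± 4.11), Chrnb4 (3.94 ± 1.85), Chrnb3 (3.84 ± 1.21) and Chrna4 (1.46 ± 0.255). The ranges of Chrna7 and Chrnb2 overlapped, as did those of Chrnb4 and Chrnb3, while the other neighbours in the order did not overlap. Chrna6 was above Chrna7 within every DRG library, with a TPM ratio of 1.56 to 2.08 with no disease, 1.29 to 1.45 at peak and 1.35 to 1.89 in recovery. Chrna6 thus stayed the most abundant member per length at each stage, although the TPM ranges of Chrna6 and Chrna7 overlapped at peak. Its share of the summed TPM of the 7 members was 41.7% to 45.3% with no disease, 34.3% to 38.3% at peak and 35.7% to 42.5% in recovery. The peak and no disease shares did not overlap, while recovery overlapped both.

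Chrna6, the alpha subunit used in the choice of the family, was lower in every diseased DRG library than in any no disease library. It measured 71.5, 79.6 and 65.4 CPM in no disease libraries, 44.3, 40.5 and 42.5 CPM at peak, and 46.1, 42.9 and 46.1 CPM in recovery. Its mean was 58.8% of the no disease mean at peak and 62.4% in recovery. The log2 fold changes were -0.77 at peak and -0.68 in recovery, and 0.09 for recovery over peak. The lower level was thus already present at peak, and recovery lay close to peak with no further step down. Across 14 alternative settings these values ranged from -0.83 to -0.71 at peak, from -0.75 to -0.62 in recovery and from 0.05 to 0.12 for recovery over peak.

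**Figure D1:**
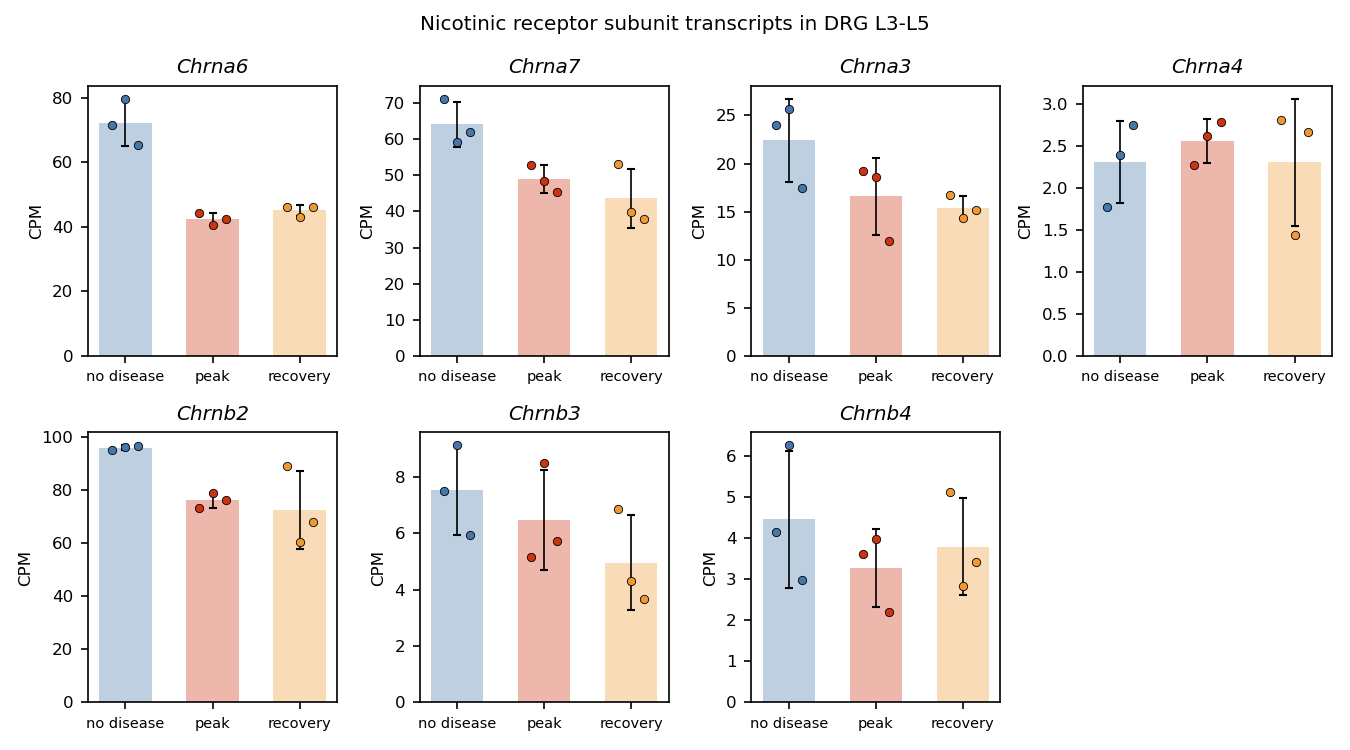
CPM of the 7 subunits in DRG by stage; points are libraries (n = 3), bars means and whiskers SD. All diseased Chrna6 points, at 40.5 to 46.1 CPM, lie below the no disease points at 65.4 to 79.6, while the Chrna4 points overlap.

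Among the other alpha subunits, Chrna7, which can form channels alone, was the only 1 of the 6 tested members that edgeR called in DRG with all libraries. With no disease it measured 71.2, 59.3 and 61.9 CPM, at peak 53, 48.5 and 45.4 CPM, and in recovery 53.1, 39.9 and 37.9 CPM. Neither diseased group overlapped the no disease group. Chrna7 fell in recovery relative to no disease (-0.56 ± 0.13, adjusted p = 0.0478), and its peak value was -0.39 ± 0.13 (adjusted p = 0.0944). The recovery call lies close to the threshold. It held under 7 of 14 alternatives, with adjusted p between 0.0018 without recovery replicate 1 (log2 fold change -0.75) and 0.197 without recovery replicate 2. It was lost without any 1 of the 3 no disease libraries or without recovery replicate 3, where adjusted p was 0.116 to 0.178, with DESeq2 size factors (0.0504), and in a fit of all 18 libraries (0.122).

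Chrna3, the main alpha subunit of autonomic ganglia, measured 24, 25.7 and 17.5 CPM in no disease libraries, 19.2, 18.6 and 12 CPM at peak, and 16.7, 14.3 and 15.2 CPM in recovery. The recovery group lay below the no disease group, while the peak group overlapped it. Its values were -0.43 ± 0.19 at peak (adjusted p = 0.185) and -0.54 ± 0.19 in recovery (adjusted p = 0.124), neither of which passed the test. The recovery value was -0.62 ± 0.20 (adjusted p = 0.0518) without recovery replicate 1. Chrna4, an alpha subunit that pairs with beta2 in brain, was the least abundant member in DRG, at 1.44 to 2.82 CPM over all 9 libraries. Its groups overlapped, with 0.15 ± 0.29 at peak (adjusted p = 0.79) and -0.01 ± 0.28 in recovery (adjusted p = 0.992).

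Of the beta subunits, Chrnb2, a common partner of alpha subunits in neurons, was tightly grouped with no disease at 95.1, 96.5 and 96.7 CPM. It measured 73.4, 79.1 and 76.3 CPM at peak, and 89.2, 60.7 and 68 CPM in recovery. Neither diseased group overlapped the no disease group. Its values were -0.33 ± 0.12 at peak (adjusted p = 0.119) and -0.40 ± 0.12 in recovery (adjusted p = 0.0865). Without recovery replicate 1, the highest Chrnb2 library of that group, the recovery value was -0.60 (adjusted p = 0.00139). DESeq2 called it with all libraries (-0.41, adjusted p = 0.0351). Adar, whose exons overlap Chrnb2, measured 51.6 ± 5.02 CPM in no disease libraries, 58.9 ± 8.33 CPM at peak and 55.2 ± 7.12 CPM in recovery, and was not called.

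Chrnb4, which assembles with alpha3 and alpha6, and the accessory subunit Chrnb3 were low in DRG. Chrnb4 measured 4.15, 6.26 and 2.97 CPM in no disease libraries, 3.62, 3.99 and 2.2 CPM at peak, and 5.12, 2.83 and 3.43 CPM in recovery, and its groups overlapped. It was not called, at -0.44 ± 0.33 for peak (adjusted p = 0.442) and -0.24 ± 0.32 for recovery (adjusted p = 0.706). Chrnb3 measured 7.49, 9.11 and 5.95 CPM in no disease libraries, 5.16, 8.47 and 5.73 CPM at peak, and 6.86, 4.31 and 3.68 CPM in recovery. Its values were -0.22 ± 0.27 at peak (adjusted p = 0.663) and -0.61 ± 0.27 in recovery (adjusted p = 0.216), and its groups overlapped. Without recovery replicate 1 the recovery value of Chrnb3 was -0.93 (adjusted p = 0.0234).

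Of the 6 members other than Chrna6, edgeR called 0 at peak in DRG, where 3.21% of all 16482 genes tested were called lower and 4.42% higher. Before adjustment 3 of the 6 were under 0.05 by edgeR, namely Chrna3, Chrna7 and Chrnb2, and DESeq2 called 0. In recovery 1 of 6 was called lower, against 0.734% of all genes called lower and 2.44% higher. The median log2 fold change of the 6 was -0.36 at peak and -0.47 in recovery, beside 0.01 and 0.00 over all genes tested. Groups did not overlap, with the diseased group lower, for 2 of 6 at peak, where 16.9% of all genes did so, and for 3 of 6 in recovery, where 12.8% did. These comparisons share the no disease libraries. For recovery against peak edgeR called 0 of 6, and 0.109% of all genes lower and 0.0303% higher. No member of the 6 had an unadjusted p under 0.05 in that comparison, and DESeq2 called 0. Without recovery replicate 1 edgeR called 1 of 6 lower in recovery than at peak, Chrnb2 (-0.26 ± 0.07, adjusted p = 0.0476), where 579 of all genes were higher and 1175 lower. Without DRG recovery replicate 1, 3 of the 6 were called lower in recovery than with no disease, and over all 16666 genes then tested 1864 (11.2%) were lower and 1758 higher.

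**Figure D2:**
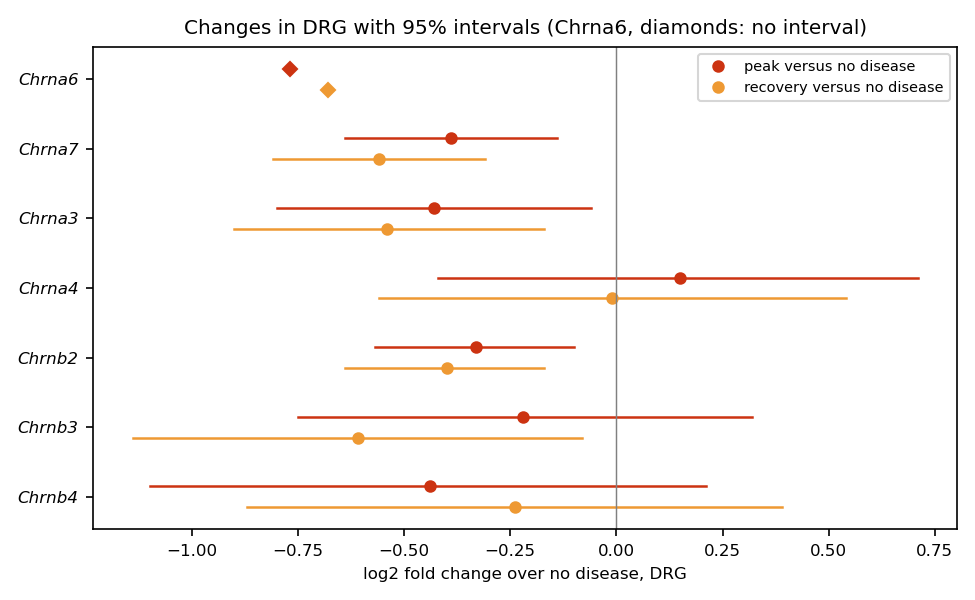
Log2 fold change in DRG of peak and of recovery over no disease, with 95% intervals; diamonds mark Chrna6, shown with no interval. The recovery interval of Chrna7 runs from -0.81 to -0.31, and the intervals of Chrna4 and Chrnb4 include 0.

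The authors' deposited table gave smaller q-values for some members. It lists log2 ratios of no disease over peak, the reverse direction, of 0.41 for Chrna7 (q = 0.0188) and 0.35 for Chrnb2 (q = 0.0258). For recovery over no disease the authors' deposited table lists -0.54 for Chrna3 (q = 0.0433) and -0.56 for Chrna7 (q = 0.0109).

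Levels of several members were correlated across the 9 DRG libraries, which differ in stage and depth. As a description, Pearson's r of log2 CPM was 0.89 for Chrna7 with Chrnb2 and 0.804 for the neighbours Chrna3 and Chrnb4. These were 0.682 and 0.889 once the stage means were subtracted. For Chrna6, r was 0.762 with Chrna7 and 0.767 with Chrnb2, but 0.083 and 0.184 within stages. The neighbours Chrna6 and Chrnb3 had an r of 0.484 (0.249 within stages), and the TPM ratio of Chrna6 to Chrnb3 ran from 10.5 to 27.4 over the libraries. Chrna4 had an r of -0.151 to 0.364 with the other members. The 8 genes most like Chrna6 among 13795 ranked had r of 0.973 to 0.985, and 0.614 to 0.788 within stages. They included Rnf19a, Cdh11, a cadherin, Nsun2, an RNA methyltransferase, Tmem72, Lhfpl3, Rnf6 and Ddhd2, a phospholipase.

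Proteins that act on nicotinic receptors were followed in a list of 9 chaperones and Ly6 family modulators, of which 8 were tested in DRG. At peak 3 fell, with a list median of -0.42, where 3.21% of all genes were lower. Tmem35a, the chaperone NACHO needed for alpha7 assembly, had 35.7, 36.1 and 35.6 CPM at peak, against 55.9, 53.3 and 58.7 CPM with no disease (-0.64 ± 0.07, adjusted p = 0.00168). Lynx1, a modulator anchored in the membrane, fell by 0.42 on the log2 scale (SE 0.11, adjusted p = 0.044), and Lypd6b fell by 0.73 (SE 0.19, adjusted p = 0.0427). In recovery 1 of 8 was called, Tmem35a, at 43.7, 39.5 and 43 CPM (-0.41 ± 0.07, adjusted p = 0.0231). Over all genes tested in DRG, 0.734% were called lower in recovery and 2.44% higher. With recovery replicate 1 left out, 3 of 8 were lower in recovery, namely Tmem35a (-0.46), Ric3 (-0.46) and Lynx1 (-0.46). Then 1 was higher, Ly6e (0.81), where 11.2% of all genes were lower and 10.5% higher. Ric3, another chaperone of alpha7, had 118, 132 and 128 CPM at peak, against 144, 136 and 144 CPM with no disease, and was not called at peak. Among 5 tested genes of acetylcholine synthesis, transport and breakdown, 0 were called at peak and Bche, butyrylcholinesterase, fell in recovery (-0.50 ± 0.07, adjusted p = 0.0174), and was again the 1 called of 5 without recovery replicate 1. The P2X receptors P2rx2 and P2rx3 and the 5 muscarinic receptors were called in neither comparison with all libraries. P2rx3 (-0.43 ± 0.10, adjusted p = 0.0125) and Chrm2 (-0.55 ± 0.12, adjusted p = 0.0109) were lower in recovery once recovery replicate 1 was left out.

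Markers of neurons and of other cells moved in the same DRG libraries. In bulk tissue, fewer cells of a type and less RNA per cell cannot be told apart. Summed over 13 pan-neuronal genes, levels were 11400 to 13100 CPM in no disease libraries, 9380 to 10900 CPM at peak and 9200 to 11700 CPM in recovery, and none of the 13 was at 0 in any DRG library. Of the 13, 3 fell at peak, namely Nefl (-0.64 ± 0.13, adjusted p = 0.0167), Snap25 (-0.57 ± 0.10, adjusted p = 0.00949) and Isl1 (-0.30 ± 0.07, adjusted p = 0.0315), and 0 were called in recovery. Over all genes tested, 3.21% were called lower at peak and 0.734% in recovery. The list median was -0.24 at peak and -0.31 in recovery. Without recovery replicate 1, 10 of the 13 were lower in recovery than with no disease, with a list median of -0.40, where 11.2% of all genes were lower. Per 1000 CPM of these genes, Chrna6 stood at 5.44, 6.95 and 5.17 with no disease. It stood at 4.73, 3.72 and 4.18 at peak, and at 3.93, 4.66 and 4.69 in recovery. These values are a description only, since the DRG levels of Chrna6 chose the family. On the same scale Chrnb2 overlapped, at 7.24 to 8.43 with no disease, 7.27 to 7.82 at peak and 6.6 to 7.59 in recovery. Chrna7 overlapped at peak (4.46 to 5.65, against 4.9 to 5.42 with no disease) and not in recovery (3.85 to 4.52).

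Injury genes rose in 8 of 10 cases at peak and in 4 of 10 in recovery. Over all genes tested, 4.42% were higher and 3.21% lower at peak. In recovery 2.44% were higher and 0.734% lower. Schwann cell markers rose in 5 of 10 cases at both stages, with summed levels of 5280 to 7070 CPM in no disease libraries, 9500 to 10500 CPM at peak and 8660 to 10600 CPM in recovery, and macrophage markers rose in 6 of 10 at peak and 5 of 10 in recovery. Of the sensory classes, large neurofilament neurons had 3 of 12 markers lower at peak and non-peptidergic neurons 1 of 11 lower. Peptidergic neurons had 1 of 8 higher, Adcyap1 (116 CPM with no disease, 173 CPM at peak), with a list median of -0.30. The Sst and Nppb itch class had 1 of 7 higher, Nts (10.5 CPM with no disease, 77.4 CPM at peak), with a list median of -0.24. In recovery the itch class had 4 of 7 lower and 1 higher, while the other sensory classes had 0 called. Without recovery replicate 1 calls rose over all genes tested, to 11.2% lower and 10.5% higher. The itch class again had 4 of 7 lower and 1 higher. Large neurofilament neurons then had 7 of 12 lower, non-peptidergic neurons 7 of 11 and peptidergic neurons 3 of 8. Injury genes then had 4 of 10 higher, Schwann cell markers 7 of 10 higher and 1 lower, macrophage markers 9 of 10 higher, and satellite glia 1 of 7 lower. C-low threshold mechanoreceptors had 0 of 4 tested markers called at either stage, satellite glia had 1 of 7 higher and 2 lower at peak and 0 in recovery with all libraries, and skeletal muscle had 0 of 8 called. Sympathetic neuron markers, which bear on Chrna3 and Chrnb4, summed to only 2.18 to 3.82 CPM over 9 genes in DRG. Up to 6 of those 9 had no count in a library. The part of cell composition in the changes of the subunits was not tested.

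**Figure D3:**
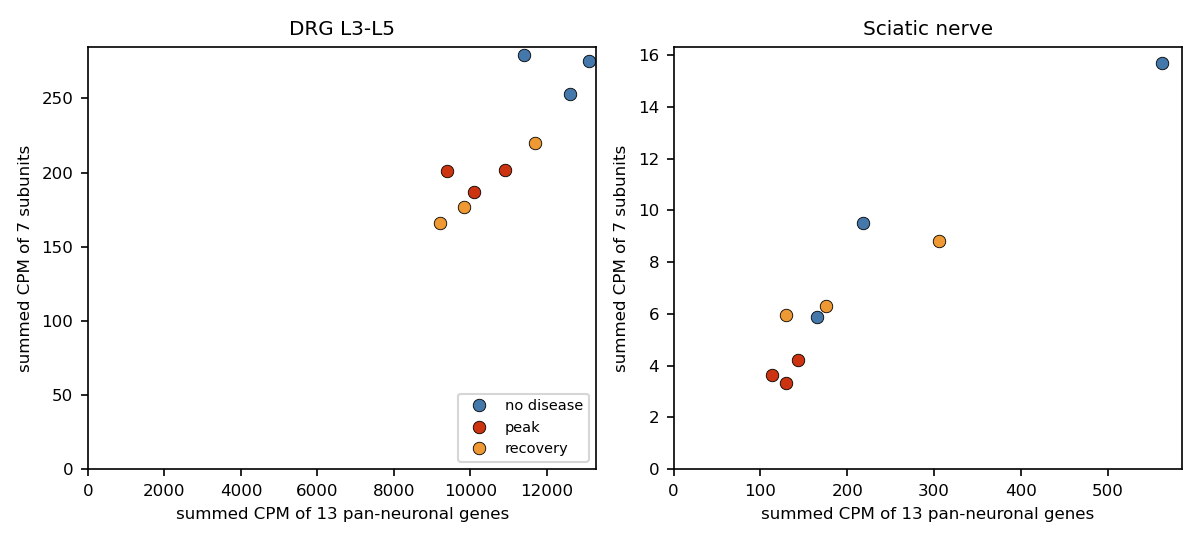
Summed CPM of the 7 subunits against summed CPM of 13 pan-neuronal genes, 1 point per library, for DRG and sciatic nerve. Nerve libraries at peak lie lowest on the subunit axis, at 3.31 to 4.23 CPM, and no disease replicate 1 is highest at 15.7 CPM.

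In sciatic nerve the subunits were rare, and counts rather than CPM set the precision. Only Chrna7, Chrnb2 and Chrnb3 passed the filter on low counts. DRG with no disease was higher than nerve with no disease for all 3 of them (37% of 17289 genes were called higher in DRG and 37.4% lower). The log2 fold changes of DRG over nerve were 4.91 ± 0.18 for Chrnb2, 4.28 ± 0.25 for Chrna7 and 2.74 ± 0.38 for Chrnb3, with adjusted p of 6.28e-06 or less. Chrna3 and Chrna4 passed the filter of that fit through DRG alone, so only their counts are given. Chrna3 had 1216 counts in DRG and 33 in nerve with no disease, and Chrna4 had 125 in DRG and 6 in nerve. Chrnb4 had 242 counts in DRG and 0 in nerve with no disease, at least 67.4-fold higher in DRG against a floor of 3 counts over the group. Chrna6 had a log2 fold change of 5.57, given with no test.

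Chrna6 had 63, 4 and 6 counts in nerve with no disease, 0 in all 3 libraries at peak, and 25, 8 and 6 in recovery. Pooled over the group, its level was at least 31.5-fold lower at peak than with no disease, against a floor of 3 counts, and recovery was at least 14.2-fold higher than peak. One library carries much of this: without no disease replicate 1 the bound is 6.79-fold, and without recovery replicate 1 it is 7.46-fold. With no filter on low counts, edgeR called Chrna6 lower at peak than with no disease (adjusted p = 0.00269) and higher in recovery than at peak (adjusted p = 0.0192). Peak DRG libraries held 1890 Chrna6 counts, at least 833-fold more per total count than peak nerve at the floor. The authors' deposited table lists a log2 ratio of 7.70 for Chrna6 in nerve with no disease over peak (q = 4.82e-05).

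Chrnb3, the neighbour of Chrna6, had a like pattern, with 32, 13 and 8 counts with no disease, 1, 0 and 0 at peak, and 9, 9 and 16 in recovery. It fell at peak (-5.71 ± 0.83, adjusted p = 0.00104) and was higher in recovery than at peak (4.67 ± 0.89, adjusted p = 0.00764). Both calls held under 14 of 14 alternatives, among them the fit with no filter. Chrnb3 passed the filter on low counts only through no disease and recovery libraries. Both values rest on 1 count at peak, so their size is uncertain. From pooled counts, the peak level was 0.0146 of the no disease level (95% interval 0.000362 to 0.0847, counting error only). Chrna7 had 95, 29 and 34 counts with no disease, 22, 17 and 31 at peak, and 46, 33 and 41 in recovery. Of the peak libraries, only replicate 3 had as many raw counts as a no disease library. Scaled to library size, Chrna7 ranged from 0.97 to 1.29 CPM at peak and from 2.19 to 5.41 CPM with no disease. Chrna7 fell at peak (-1.64 ± 0.36, adjusted p = 0.00909), again under 14 of 14 alternatives, with -1.12 as the smallest change.

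Of the 3 members tested in nerve, 2 were called lower at peak, where 12.1% of 16049 genes were lower and 15% higher. Of these, Chrnb3 passed the filter only through no disease and recovery libraries, where it was high, so its calls are a description. Chrnb2 was not called (-0.60 ± 0.25, adjusted p = 0.102), at 2.26 ± 0.287 CPM at peak and 3.46 ± 0.943 CPM with no disease, beside Adar at 38.6 ± 8.75 CPM at peak and 40.7 ± 3.1 CPM with no disease. In recovery against no disease edgeR called 0 of 3, with 0.393% of all genes lower and 0.629% higher. None of the 3 had an unadjusted p under 0.05 there, and DESeq2 called 0. In recovery against peak 1 of 3 was higher, Chrnb3, where 7.36% of all genes were higher and 11.1% lower.

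Chrna3 had 24, 7 and 2 counts in nerve with no disease, 3, 0 and 0 at peak, and 5, 3 and 0 in recovery. The pooled ratio of peak to no disease was 0.0701 (95% interval 0.0138 to 0.224, counting error only), and edgeR with no filter gave adjusted p = 0.028. No disease replicate 1 held 24 of the 33 no disease counts, so 1 library carries much of this ratio. Chrna4 had 1 to 3 counts with no disease, 2 to 9 at peak and 2 to 9 in recovery, and Chrnb4 had 0 in all with no disease, 1 at peak and 6 in recovery. At these depths no difference was detectable for Chrna4 or Chrnb4.

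**Figure D4:**
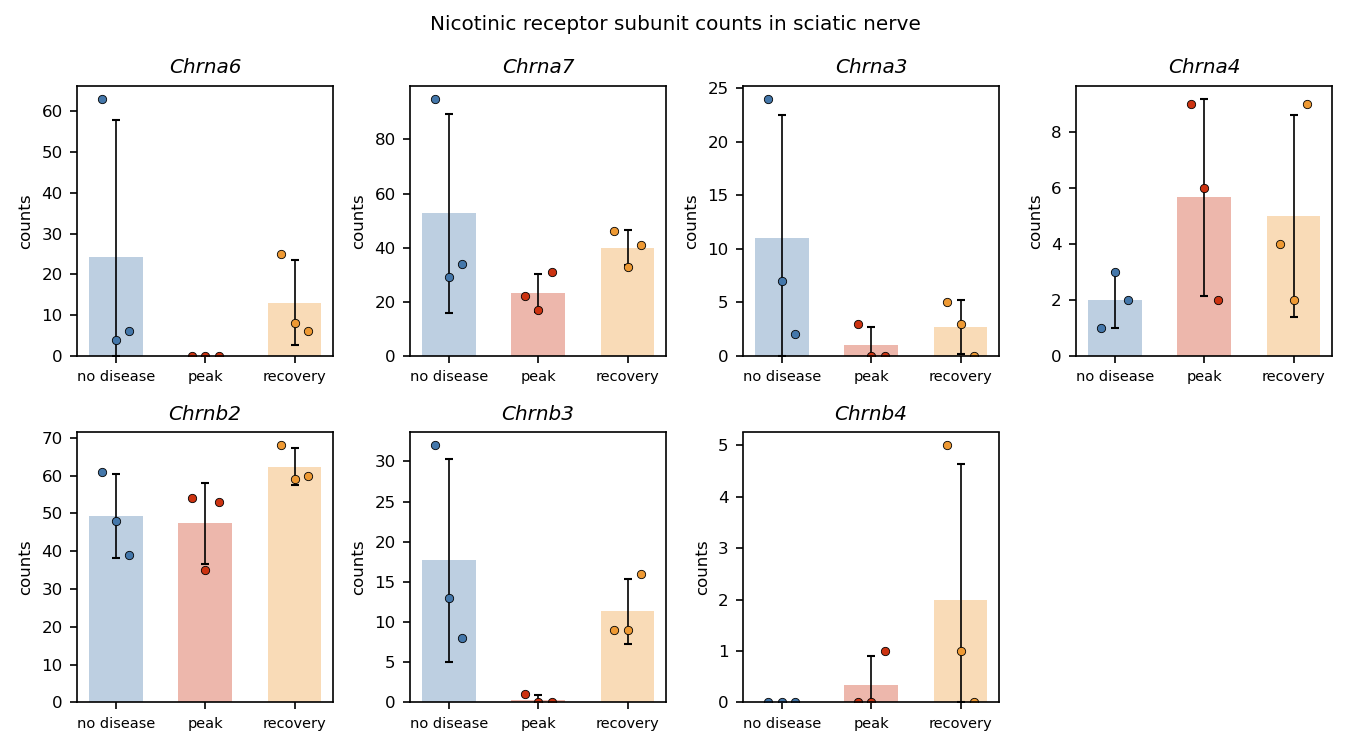
Counts of the 7 subunits in sciatic nerve by stage; points are libraries (n = 3), bars means and whiskers SD, cut off at 0. Chrna6 is at 0 in all 3 peak libraries, and no disease replicate 1 gives the highest points for Chrna6 (63), Chrna7 (95), Chrna3 (24) and Chrnb3 (32).

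Neuronal markers moved in the same nerve libraries, where 12.1% of all genes tested were called lower at peak and 15% higher. The 13 pan-neuronal genes summed to 165 to 563 CPM in no disease libraries, 113 to 143 CPM at peak and 129 to 306 CPM in recovery, with no disease replicate 1 highest, and 8 of 13 fell at peak. Among markers tested at peak, 5 of 7 peptidergic, 2 of 9 non-peptidergic and 2 of 4 itch class markers fell. Large neurofilament neurons had 3 of 12 lower and 1 higher, and C-low threshold mechanoreceptors had 2 of 4 lower and 1 higher. Slc17a8 of the latter list averaged 21.5 CPM at peak and 2.21 CPM with no disease, beside 15.1 CPM in peak DRG (each scaled within its tissue). Osmr averaged 104 CPM at peak, where the itch list summed to 100 to 114 CPM. The large neurofilament list summed to 1130 to 1500 CPM at peak. In nerve these lists are therefore not read as sensory neuron classes. Macrophage markers had 6 of 10 higher and 1 lower, and Schwann cell markers 2 of 10 higher. Genes of the satellite glia list had 4 of 7 higher and 1 lower. They summed to 5600 to 6800 CPM in peak nerve, against 2360 to 2610 CPM in peak DRG, each scaled within its tissue. In nerve this list is therefore not read as satellite glia. Calca, the precursor of CGRP, had 55.1, 13.1 and 7.93 CPM in no disease libraries, 1.04, 0.742 and 0.5 CPM at peak, and 25.7, 9.69 and 3.7 CPM in recovery. Scn11a, a sodium channel of nociceptors, had 0, 2 and 7 counts at peak, against 387, 72 and 55 with no disease. The part of neuronal RNA content of the nerve in the subunit changes was not tested. Of 6 chaperones and Ly6 modulators tested in nerve, 1 was called at peak, with a list median of -0.24. It was Ric3, which fell (-0.79 ± 0.15, adjusted p = 0.00376) and had not been called at peak in DRG.

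The peak response differed between the tissues for 2 of the 3 members that passed the filter in both, each with the more negative value in nerve, where 9.47% of all genes had a higher response in DRG and 6.63% a lower one. Chrnb3 had 1 count at peak in nerve, so the size of its difference is uncertain. In nerve it passed the filter only through no disease and recovery libraries, where it was high, so its call is a description. The difference, DRG minus nerve, was 5.52 ± 0.92 for Chrnb3 (adjusted p = 0.00133) and 1.31 ± 0.38 for Chrna7 (adjusted p = 0.028). For Chrna7 it was 0.73 (adjusted p = 0.104) without nerve no disease replicate 1, and the call was also lost without any 1 of 5 other libraries, with adjusted p of 0.0503 to 0.0667. For the recovery response edgeR called 0 of these 3, where 0.324% of all genes were higher and 0.133% lower. No unadjusted p of a member was under 0.05 in that comparison, and edgeR with DESeq2 size factors also called 0.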

How the data were processed

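Total RNA of 18 libraries was sequenced after SMARTER mRNA library preparation, per the labels. Per the submitters' processing notes, the builds were GRCm38 and mm10 and the tools STAR 2.6.1a, kallisto 0.44.0 and Bowtie2. The sources used here give neither the counting step nor the annotation and strand setting, so reads of overlapping genes may be shared. The authors deposited whole-number read counts for each Ensembl gene. The authors also deposited a normalised signal, which equals each library's counts multiplied by a constant (relative departure at most 5.11e-15) and was not tested. The authors' deposited table gives log2 ratios per gene, per the file headers. Its q-values (adjusted p-values) come from the authors, per the file headers, and how they were adjusted is unknown here.

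From the counts, the 9 libraries of each tissue were fitted with edgeR 4.0.16 (R 4.3.3) after filterByExpr and TMM (factors 0.798 to 1.09), by the quasi-likelihood F test with no covariate. P-values were adjusted by Benjamini-Hochberg over 16482 genes in DRG and 16049 in nerve. Tissue contrasts and interactions came from 1 fit of all 18 libraries (17289 genes). Each SE is the absolute log2 fold change over the square root of F. TPM used union exon lengths of GENCODE vM21, in which 28578 of 28684 gene IDs were found. TPM is not TMM-scaled and moves with the share of ribosomal RNA reads, so stages were compared in CPM. A group with no count was given a floor of 3 counts over the group, and floors and count intervals (95%, exact) cover counting error only. Libraries of a group differed by more than sampling noise, so none was counted as a duplicate. The fit was tested on simulated data.

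The members and lists were chosen with earlier results of these data known. Lists name up to 4 called members of at least 1 CPM, largest change first, or up to 3 abundant members where none was called. Genes like Chrna6 are the 8 with the highest Pearson's r of log2 CPM (prior count 2) among genes of at least 1 CPM, leaving out those named Gm or Rik, and 1 of the 8 is not reported here. Alternatives were DESeq2 1.42.0, its size factors, limma-voom (limma 3.58.1), no filter, 1 fit of all libraries, the replicate number as a block, and leaving out each library. Others left out Gm26917, Lars2 and AY036118, or Gm42418, Gm26917 and AY036118. Counts of list genes without DRG recovery replicate 1 were added after seeing the data.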

Additional observations from a re-analysis of the deposited data

Results flagged for a closer look

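For 2 subunits the change at peak relative to no disease differed between DRG and nerve by an interaction test in edgeR over all 18 libraries. Chrnb3 had 1 count at peak in nerve, so the size of its difference is uncertain. In nerve it passed the filter on low counts only through no disease and recovery libraries, where it was high, so its call is a description. The difference, DRG minus nerve, was 5.52 for Chrnb3, and it was called under 14 of 14 alternatives. It was 1.31 for Chrna7, called under 8 of 14. For Chrna7 the call was lost without nerve no disease replicate 1, the nerve library with the highest levels of pan-neuronal genes. It was also lost, with adjusted p of 0.0503 to 0.0667, without nerve peak replicate 1 or 2, DRG peak replicate 1, or DRG no disease replicate 2 or 3.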

How the results depend on the processing

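Gene counts by the test moved more than those of the subunits. With no filter, DRG recovery over no disease had 674 genes higher, DRG recovery over peak 46 higher and 92 lower, and nerve recovery over no disease 176 and 140. DESeq2 gave 843 lower at peak in DRG, 918 higher and 588 lower in DRG recovery, 101 and 191 for DRG recovery over peak, and 283 and 267 in nerve recovery. Limma-voom gave 1 and 11 for DRG recovery over peak and 55 and 35 in nerve recovery. The fit of all 18 libraries gave 76 lower in DRG recovery, 3026 lower at peak in nerve, 170 and 145 in nerve recovery, and 1960 higher in nerve recovery over peak. The cause was not tested.

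Replicate numbers did not pair the samples, since same-numbered libraries had deviations with r of -0.382 to 0.305 in DRG (3 of 9 over 0.1) and -0.064 to 0.144 in nerve (4 of 9). With the replicate block, 66 genes were lower in DRG recovery and 0 and 4 were called for DRG recovery over peak, and Chrna7 at peak in DRG had -0.39 (edgeR adjusted p = 0.0374).

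Leaving out 1 library at a time gave the following ranges of genes higher and lower. They were 195 to 473 and 119 to 307 for DRG peak, 2 to 1758 and 0 to 1864 for DRG recovery, and 0 to 579 and 0 to 1175 for DRG recovery over peak. They were 1658 to 2561 and 1320 to 2191 for nerve peak, 13 to 79 and 0 to 65 for nerve recovery, and 429 to 1621 and 819 to 2145 for nerve recovery over peak. They were 5992 to 6291 and 6069 to 6453 for DRG over nerve, 1028 to 1729 and 752 to 1367 for the peak interaction, and 5 to 330 and 2 to 135 for the recovery interaction. The highest DRG recovery counts came without recovery replicate 1.

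Of the subunits, values that turned sign did so when 1 library was left out, and none of them had been called. In DRG, Chrna4 ranged from -0.02 to 0.29 at peak, from -0.20 to 0.23 in recovery and from -0.33 to 0.10 for recovery over peak. Chrnb4 ranged from -0.53 to 0.07 in recovery and from -0.08 to 0.38 for recovery over peak, Chrna3 from -0.31 to 0.00 and Chrnb2 from -0.26 to 0.04 for recovery over peak. In nerve recovery Chrnb2 ranged from -0.28 to 0.09, and the recovery interaction ranged from -1.50 to 1.52 for Chrna6, from -0.34 to 0.53 for Chrna7 and from -0.12 to 0.86 for Chrnb3. Low counts limit what could be detected in nerve for Chrna3, Chrna4, Chrna6 and Chrnb4.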

Other observations

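Of 9 nicotinic subunit genes outside the 7 members, 4 were tested in DRG and 0 were called by edgeR at peak or in recovery with all libraries. Without DRG recovery replicate 1, Chrna10 was lower in recovery (-1.15 ± 0.36, edgeR adjusted p = 0.0459), where 11.2% of all genes were lower. The remaining recovery libraries had 8 and 14 Chrna10 counts, and the library left out had 23. Exons of Chrna10 overlap those of Art1. Chrna5, an accessory subunit gene 2331 bp from Chrna3 on chromosome 9, averaged 0.572 ± 0.142 CPM in no disease DRG, 1.22 ± 0.295 CPM at peak and 0.522 ± 0.288 CPM in recovery (SD, n = 3 each). Its peak value was 1.09 ± 0.43 (log2, adjusted p = 0.149), the opposite sign to Chrna3 (-0.43 ± 0.19), and the difference between these genes was not tested. In nerve, Chrnb1, the beta subunit of the muscle receptor, fell at peak (-1.14 ± 0.34, edgeR adjusted p = 0.0321), with 1.51 ± 0.603 CPM at peak and 3.43 ± 1.15 CPM with no disease. Skeletal muscle markers in the same libraries summed to 8.31 to 53.4 CPM at peak and 200 to 763 CPM with no disease, and 6 of 9 fell. Over all genes tested in nerve, 12.1% were called lower at peak. Their part in the Chrnb1 change was not tested.

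Of 4 muscarinic receptors tested in nerve, Chrm1 rose at peak (1.72 ± 0.56, edgeR adjusted p = 0.0457) and Chrm5 fell (-1.79 ± 0.34, edgeR adjusted p = 0.00454). Over all genes tested in nerve, 15% were called higher at peak and 12.1% lower. In recovery 0 of the 4 were called, where 0.629% of all genes were higher and 0.393% lower.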
